A study of Mus musculus with 60 samples.

Results

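H3K27me3 regions found after simultaneous isolation were set against those found after separate isolation, in hippocampal neurons of exercised mice. The simultaneous (SIT) list held 25693 peaks. The left separate list held 18262 and the right separate list 9899, and joining the left and right peaks that shared at least 1 bp gave 18882 separate regions. Together these 3 lists hold 53854 of the 256375 peaks in the 12 lists of the series. The question was which regions, by width, annotation, distance to a start site and gene, each way of isolating nuclei finds.

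The study profiled histone modifications by CUT&RUN-seq, in which an antibody guides a nuclease to cut out the DNA around a mark inside isolated nuclei. The exercised mice were male Emx1-NuTRAP mice that had free access to a running wheel from postnatal day 21 to 41 and were killed on the following day. Sedentary mice of the same kind, housed without a wheel, gave the lists used at the end as a second set. Emx1-NuTRAP mice carry an Emx1-Cre driver and the NuTRAP cassette, so that Cre in cells of the Emx1 lineage, mostly excitatory neurons and some glia of the forebrain, switches on tagged nuclei and tagged ribosomes. In SIT, both hippocampi of a mouse were homogenised in 1 tube with cycloheximide, and nuclei and translating RNA were taken from the same homogenate. In the separate isolation, nuclei came from the left or the right hippocampus alone, in INTACT buffer without the cycloheximide step, and the other hippocampus of the mouse was used for RNA, so a mouse gave nuclei to the left list or to the right list and not to both. The labels give 4 libraries for SIT, 3 for left separate and 3 for right separate. The exercised CUT&RUN samples that the study lists as left out after quality checks were H4K8ac samples, and none was H3K27me3. Its figure of peaks set against expression gives 3 exercised mice, so the lists may still rest on fewer libraries than the labels give. Each list is a single pooled value of its group, with no replicates apart and no signal or depth, so intervals given below are 95% Wilson intervals that cover counting error only, and no difference could be tested against the spread between mice. Isolation method, amount of tissue, number of libraries and sequencing depth cannot be told apart here.

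H3K27me3 is trimethylation of lysine 27 of histone H3. It is set by Polycomb repressive complex 2, whose catalytic subunit is EZH2 or EZH1, and read by the CBX proteins of Polycomb repressive complex 1. In neurons it lies over genes of other lineages and of other brain regions, often as broad domains over homeobox and other developmental transcription factor genes, and its usual entry points are CpG-rich start sites.

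Promoter sequences of 5 genes are shown as examples of start sites that the isolations shared or did not, and they were not picked to be typical. They are RefSeq promoters on GRCm38.p6, 250 bases before to 50 after the start site, printed 5′ to 3′ on the strand of the gene, with every CG dinucleotide in capitals. Pax6, a transcription factor of eye and cortical progenitors (chr2:105668646-105668945, plus strand), lay inside a region in all 3 lists. Hoxd13, the last gene of the HoxD cluster (chr2:74667975-74668274, plus strand), had its annotated start site inside a SIT peak and between neighbouring separate regions. Wnt2, a secreted WNT ligand (chr6:18030396-18030695, minus strand), was in a SIT peak far from any separate region. Nkx2-4, a homeobox factor of the hypothalamus (chr2:147085296-147085595, minus strand), was inside a separate region and between neighbouring SIT peaks. Wwtr1, the Hippo pathway co-activator TAZ (chr3:57575861-57576160, minus strand), was inside a separate region with no SIT peak over it. Wwtr1 was chosen after its values were seen, as a start site in a wide separate region (5488 bp, left) away from any SIT peak.
Pax6: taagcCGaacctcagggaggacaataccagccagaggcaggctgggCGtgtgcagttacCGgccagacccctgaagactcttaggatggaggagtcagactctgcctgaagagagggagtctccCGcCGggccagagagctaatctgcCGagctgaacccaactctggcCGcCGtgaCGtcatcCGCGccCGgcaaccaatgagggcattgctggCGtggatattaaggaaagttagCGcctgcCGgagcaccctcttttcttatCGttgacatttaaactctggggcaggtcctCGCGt
Hoxd13: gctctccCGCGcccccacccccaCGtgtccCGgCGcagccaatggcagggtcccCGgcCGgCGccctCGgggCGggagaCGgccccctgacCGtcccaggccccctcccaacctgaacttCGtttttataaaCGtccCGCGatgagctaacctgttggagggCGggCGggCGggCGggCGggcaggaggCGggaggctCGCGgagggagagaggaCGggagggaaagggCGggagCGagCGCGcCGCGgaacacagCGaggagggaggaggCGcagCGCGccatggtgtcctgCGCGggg
Wnt2: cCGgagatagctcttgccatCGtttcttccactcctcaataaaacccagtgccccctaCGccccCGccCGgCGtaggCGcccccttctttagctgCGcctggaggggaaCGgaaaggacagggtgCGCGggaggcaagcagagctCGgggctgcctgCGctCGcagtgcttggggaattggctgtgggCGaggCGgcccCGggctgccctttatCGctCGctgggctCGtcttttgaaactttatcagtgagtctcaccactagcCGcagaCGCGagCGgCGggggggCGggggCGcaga
Nkx2-4: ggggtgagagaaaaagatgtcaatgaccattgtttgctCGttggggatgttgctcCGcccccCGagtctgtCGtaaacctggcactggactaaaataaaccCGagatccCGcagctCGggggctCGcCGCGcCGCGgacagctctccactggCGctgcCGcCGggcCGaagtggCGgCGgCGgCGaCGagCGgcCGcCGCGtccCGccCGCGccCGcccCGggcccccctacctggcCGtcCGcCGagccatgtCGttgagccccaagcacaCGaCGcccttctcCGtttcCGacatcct
Wwtr1: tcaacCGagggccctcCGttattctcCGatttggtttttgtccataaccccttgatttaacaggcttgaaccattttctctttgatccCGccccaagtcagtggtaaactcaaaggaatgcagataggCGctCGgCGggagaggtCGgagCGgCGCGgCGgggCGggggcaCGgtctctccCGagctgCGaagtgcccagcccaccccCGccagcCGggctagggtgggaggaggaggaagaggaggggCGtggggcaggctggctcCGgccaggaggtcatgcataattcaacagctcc

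These promoters held 18, 37, 27, 38 and 20 CG dinucleotides in the order printed, and 43.5% of the 32851 promoters in the RefSeq table held at least 10. CG reads the same on both strands. The 4 that were not shared held more CG than is usual for their classes, whose medians were 6 for SIT alone and 5.5 for separate alone against 12 for both. As many as in Pax6 were found in 29.7% of promoters, as many as in Hoxd13 in 5.58%, and as many as in Nkx2-4 in 4.95%. All 300 bases of the Pax6 promoter lay inside regions of both isolations, whereas of the Hoxd13 promoter 300 lay in a SIT peak and 5 in a separate region. Of the Nkx2-4 promoter, 300 bases lay in a separate region and 68 in a SIT peak.

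SIT covered more of the genome than the separate isolation. Its peaks covered 135.6 Mb and the merged separate regions 97.1 Mb, a ratio of 1.40, and its peaks were 1.36 times as many. Most of what the separate isolation found was found by SIT, while a large part of the SIT list had no separate counterpart. Of the separate regions, 16522 of 18882 overlapped a SIT peak (87.5%, 87.0 to 88.0%). Of the SIT peaks, 14822 of 25693 overlapped a separate region (57.7%, 57.1 to 58.3%), which left 10871 SIT-only peaks and 2360 separate-only regions. In bases, 82.8 Mb were shared, 61.1% of those in SIT and 85.3% of those in the separate regions, and the Jaccard index (shared bases over bases in either) was 0.553.

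The right separate list was the smallest. It covered 41.2 Mb against 92.4 Mb for the left list, so that against right alone the ratio of numbers was 2.60 and of bases 3.29, and 26.1% of SIT peaks overlapped it. Against left alone the ratio of numbers was 1.41, and 55.5% of SIT peaks overlapped it. Right peaks were overlapped by SIT more often (96.7%, 96.4 to 97.1%) than left peaks were (88.4%, 87.9 to 88.8%). Between the hemispheres of the separate isolation, 38.4% of left peaks overlapped a right peak and 90.1% of right peaks overlapped a left peak. Among merged regions, 6655 held peaks of both hemispheres, 11246 a left peak alone and 981 a right peak alone. SIT overlapped 99.1% (98.8 to 99.3%) of the regions found in both hemispheres, 81.7% (81.0 to 82.4%) of those found in left alone and 75.2% (72.4 to 77.8%) of those found in right alone. Of the regions found in both hemispheres, 61 were not in the SIT list, and 16 of these (26.2%, 16.8 to 38.4%) were at promoters, near the 29.9% of all regions found in both hemispheres.

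Width separated shared regions from those of 1 isolation. SIT peaks that overlapped a separate region had a median width of 4544 bp and SIT-only peaks of 2248 bp. For the separate regions the medians were 3471 bp when overlapped and 2335 bp when not. Among SIT peaks under 2 kb, 29.2% (28.0 to 30.4%) were overlapped, against 64.7% (63.5 to 65.9%) of those of 3 to 5 kb, 98.9% (98.3 to 99.3%) of those of 10 to 20 kb and all 827 of those of 20 kb or more. Separate regions were overlapped in 78.4% (76.7 to 79.9%) under 2 kb, 76.3% (75.2 to 77.3%) at 2 to 3 kb, 93.8% at 3 to 5 kb and 99.5% (99.2 to 99.7%) at 5 to 10 kb, while all 1225 of 10 to 20 kb and all 537 of 20 kb or more were overlapped. A wider interval has more bases at which it can meet another, and the part of that in this trend was not tested.

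**Figure D1:**
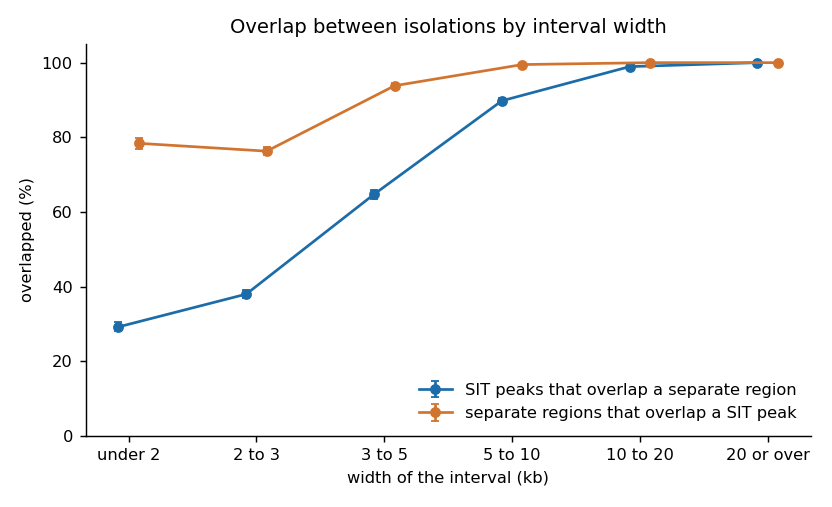
Share of SIT peaks that overlapped a separate region (blue) and of separate regions that overlapped a SIT peak (orange), in percent, by the width of the interval in kb; bars are 95% Wilson intervals. SIT peaks rose from 29.2% under 2 kb to 100% at 20 kb or more, and separate regions lay above them in every class below 20 kb.

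Shared regions were also drawn differently. In 9989 cases 1 SIT peak met 1 separate region and neither met another. The SIT peak was the wider in 66.4% of these pairs, with a median ratio of 1.14 and quartiles of 0.917 and 1.52. Against left peaks the median ratio was 1.19 over 9601 pairs, and against right peaks 1.89 over 4812 pairs. Left peaks were themselves wider than right peaks, by a median ratio of 1.49 over 5093 pairs. A further 2517 SIT peaks spanned 2 or more separate regions, up to 11, and 1563 separate regions spanned 2 or more SIT peaks, up to 5.

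The widest shared domains were found by both isolations at differing extents. The widest SIT peak, 233495 bp long, was assigned to Plcb4, a phospholipase C of G protein signalling (chromosome 2, 135601520 to 135835014). The widest separate region over the same gene had 101956 bp. Over the gene and its 10 kb flanks SIT covered 76.4% of bases in 9 peaks and separate 69.0% in 15 regions. The second widest SIT peak, of 193011 bp, covered the HoxC cluster and was assigned to the non-coding RNA Hotair (chromosome 15, 102896888 to 103089898), where the separate region was 193793 bp long. A peak of 177168 bp on chromosome 13 was assigned to the predicted gene Gm21188, one of 173404 bp to Ptprm, a receptor phosphatase of cell adhesion, and one of 160319 bp to A730082K24Rik. Ebf1, a transcription factor of B cells and striatal neurons, had 95.4% of its gene and the 10 kb on either side covered in SIT, 88.1% in left and 73.8% in right. Adgrl2, an adhesion receptor of synapses, was assigned the most overlapped SIT peaks (70), before Rbms3 (47), Ntm (45), 1700028P15Rik (40) and Zfhx3 (39).

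SIT-only peaks were narrow, and none reached 20 kb. The widest, of 18132 bp (chromosome 1, 190417173 to 190435304), and the third, of 14324 bp, were assigned to the non-coding gene Gm29678. The second, of 16875 bp, lay 374547 bp from the start site of Tshz3, a zinc finger factor of neuronal development. The next widest were assigned to Kcnh8, a voltage-gated potassium channel (14061 bp), and to Gm5796 (13874 bp). By number of SIT-only peaks the first genes were Tshz3 (46 peaks, 140897 bp in all), Adgrl2 (45), Zfp536 (40), Gm28590 (39) and Cdh13 (31), a cadherin anchored in the membrane. Tshz3 and Zfp536, both zinc finger factors, lie on chromosome 7, and the 5 Mb that hold them had 122 SIT-only peaks of 202 SIT peaks, where 42.3% of all SIT peaks were SIT only. Around the start site of Tshz3, from 60 kb upstream to 100 kb downstream, SIT covered 44.4% of bases, left 25.1% and right 10.3%.

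Separate-only regions were fewer. The widest had 8318 bp and lay over the start site of Tmem200c, a transmembrane protein gene (chromosome 17, 68834053 to 68842370), with peaks in both hemispheres. Next came regions of 8266 bp assigned to Gm10578, 6395 bp to Triqk, 6342 bp to Mecom, a zinc finger factor of blood stem cells, and 6226 bp to Gpm6a, a neuronal membrane glycoprotein. Adgrl2 also led the separate-only count, with 15 regions, before Tenm4 (8), Irx1 (8), Triqk (7) and Api5 (7). Tenm4, a synaptic adhesion molecule, had 10 SIT peaks, 13 left and no right peaks assigned to it.

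Distances from regions of 1 isolation to the other isolation were also measured, with no background distance to set them against. The median distance from a SIT-only peak to the nearest separate region was 9080 bp, with 35.4% (34.5 to 36.3%) within 5 kb and 9.08% within 1 kb. From a separate-only region to the nearest SIT peak it was 5308 bp, with 48.7% (46.7 to 50.7%) within 5 kb and 17.6% within 1 kb.

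Single loci differed in how far SIT and separate regions covered them. Prox1, a homeobox factor of dentate granule neurons, had 94.0% of its gene and 10 kb flanks covered in SIT, 58.5% in left and 3.12% in right. A SIT peak of 31143 bp covered its start site, where the left list had 2444 bp and the right list no peak. SIT assigned 23 peaks to Prox1, of which 13 met a separate region, left 28 and right 3, and all left and right peaks met a SIT peak. At the HoxD cluster SIT and left were alike, and right covered less in more peaks. From 60 kb upstream to 120 kb downstream of Hoxd13, SIT covered 87.2% of bases in 5 peaks, left 84.5% in 5 and right 72.4% in 14. Hoxd13 counted as SIT alone because its start site fell in a gap of 476 bp between separate regions of 27696 and 103975 bp. Nkx2-4 counted as separate alone because its start site fell in a gap of 733 bp between SIT peaks of 6708 and 22611 bp. Such gaps were rare: a region within 1000 bp on both sides was found for 10 of 590 SIT-alone and 7 of 150 separate-alone protein-coding start sites.

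**Figure D2:**
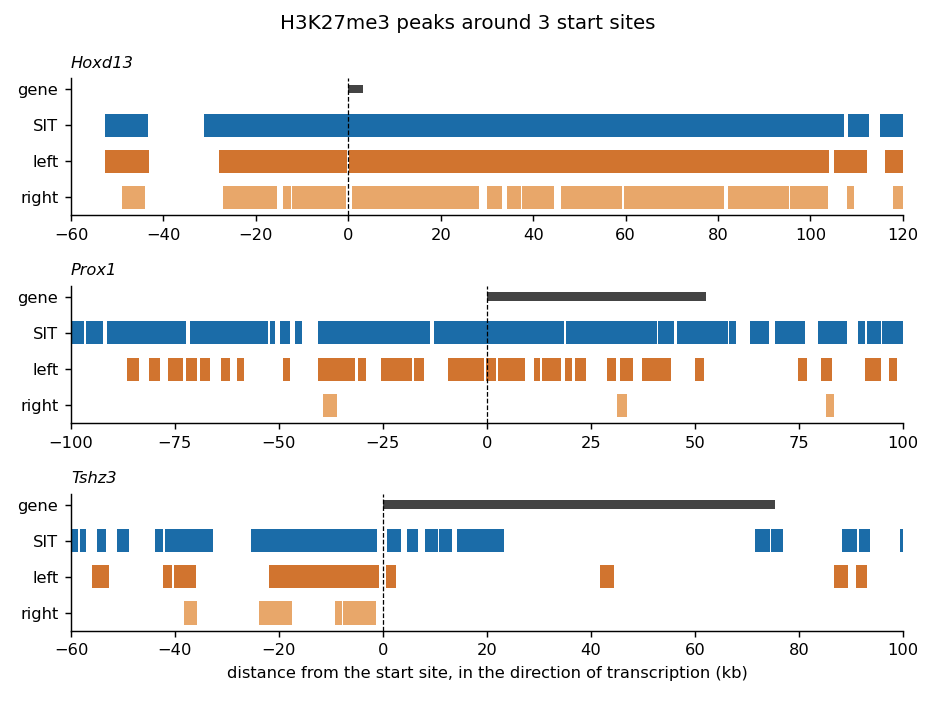
H3K27me3 peaks of the SIT, left separate and right separate lists around the start sites of Hoxd13, Prox1 and Tshz3, against distance from the start site in kb in the direction of transcription; grey bars are the genes and the dashed line is the start site. SIT covered 88.3% of the 200 kb around Prox1, left 47.1% and right 3.64%, while the HoxD window was covered to 87.2, 84.5 and 72.4%.

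By annotation SIT peaks and the merged separate regions as a whole were close, and the shared and unshared parts were not. Promoters, defined by the authors as 3 kb on either side of a start site, held 17.9% of SIT peaks (17.4 to 18.3%) and 19.2% of separate regions (18.7 to 19.8%), a difference of −1.36 percentage points. With the SIT list cut to its widest peaks, as many as there were separate regions, the difference was 1.14 points. That setting changes the length and the widths of the SIT list together, and these cannot be told apart. Against the right list alone, with 23.7% at promoters, the difference was −5.83 points, and against separate regions found in both hemispheres −12.0 points. Among SIT peaks, 22.4% (21.8 to 23.1%) of those overlapped were at promoters and 11.7% (11.1 to 12.3%) of the SIT-only peaks. Among separate regions the shares were 20.1% (19.5 to 20.7%) and 13.1% (11.8 to 14.5%). SIT-only and separate-only regions had the same lean: introns held 25.3% (24.5 to 26.1%) and 23.5% (21.8 to 25.3%) of them, and distal intergenic DNA 50.2% (49.3 to 51.2%) and 51.2% (49.2 to 53.2%). Overlapped SIT peaks were intronic in 18.1% and distal intergenic in 44.1%. Exons held 12.1% of overlapped SIT peaks, 9.71% of SIT-only peaks and 9.70% of separate-only regions.

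**Figure D3:**
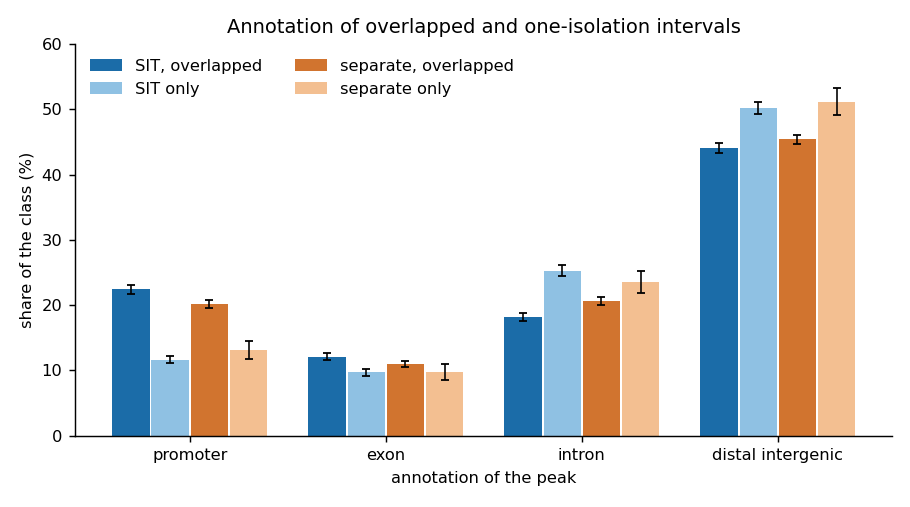
Share of SIT and separate intervals, overlapped by the other isolation or not, that were annotated to promoters, exons, introns and distal intergenic DNA, in percent with 95% Wilson intervals. Promoters held 22.4% of overlapped SIT peaks and 11.7% of SIT-only peaks, while the SIT-only and separate-only bars were close to each other in each annotation.

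Promoter peaks were also wider, with a median of 4439 bp in SIT against 2613 bp for intron peaks. Among SIT peaks of 2 to 3 kb, 43.5% (40.2 to 46.9%) of promoter peaks were overlapped, 39.9% (36.2 to 43.7%) of exon peaks, 38.2% (36.6 to 39.8%) of distal intergenic peaks and 34.2% of intron peaks, with an upper bound of 36.5% for introns. Among separate regions of that width the shares were 78.6% for promoters, 77.1% for exons, 75.3% for distal intergenic DNA and 76.7% for introns, with intervals that overlapped.

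Distance to the start site followed the same order. The listed distance was 0 bp, meaning that the start site lay inside the peak, for 16.2% (15.6 to 16.8%) of overlapped SIT peaks, 4.99% (4.59 to 5.41%) of SIT-only peaks and 5.42% (4.58 to 6.41%) of separate-only regions. Peaks from 1 to 3000 bp away differed less, at 6.23% (5.85 to 6.63%), 6.68% (6.22 to 7.16%) and 7.67% (6.66 to 8.81%). The median absolute distance was 28345 bp for overlapped SIT peaks, 37059 bp for SIT-only peaks and 33548.5 bp for separate-only regions. Over 100 kb away lay 3563 of 14822, 2979 of 10871 (27.4%) and 633 of 2360 (26.8%). The SIT-only peaks were split evenly, 46.7% upstream and 48.3% downstream of the start site.

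Base composition, which the overlap did not use, differed between shared and unshared regions and was close between SIT-only and separate-only regions. A 500 bp window with at least 50% G and C and an observed over expected CpG ratio of at least 0.6 was present in 12.4% (11.8 to 12.9%) of overlapped SIT peaks, 2.44% (2.16 to 2.74%) of SIT-only peaks and 2.42% (1.87 to 3.12%) of separate-only regions. Of consecutive 3000 bp windows of the genome, 3.36% held one. At 2 to 3 kb of width the shares were 4.66% (3.91 to 5.53%), 2.48% (2.05 to 2.99%) and 1.94% (1.35 to 2.77%). Among promoter peaks, 43.4% (41.7 to 45.1%) of the overlapped and 13.7% (11.9 to 15.7%) of the SIT-only peaks held such a window, as did 34 of 309 separate-only promoter regions. Median widths of these promoter peaks were 6057.5, 2347.5 and 2357 bp. A wider peak has more windows that can pass, and the promoter shares were not matched for width. Median GC content was 44.2% in overlapped SIT peaks, 43.4% in SIT-only peaks and 43.3% in separate-only regions, against 41.2% in the genome windows. Repeats marked in lower case in the reference made up a median of 19.8%, 19.5% and 19.2%, against 27.9% in the genome windows.

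Start sites of protein-coding genes showed the same. CG were counted in the window printed above, around the GENCODE M21 start site of every protein-coding gene, with each symbol taken once. The median number was 12 for genes marked in both isolations, 6 for SIT alone, 5.5 for separate alone and 11 for genes marked in neither. At least 10 CG were found in 58.7% (990 of 1687), 37.8% (223 of 590), 33.3% (50 of 150) and 53.6% (10443 of 19484) of them, and in 53.4% of all.

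SIT covered more bases than the separate isolation on every chromosome. The ratio of covered bases lay between 1.31 on chromosome 5 and 1.61 on chromosome 14 among the autosomes. Chromosome 11 was the most densely covered, at 8.25% of its bases in SIT and 6.12% in the separate regions. The X chromosome was the least covered of those with over 100 SIT peaks: 0.297% of its bases in SIT and 0.135% in the separate regions, in 136 peaks and 75 regions, and 37.5% (29.8 to 45.9%) of its SIT peaks were overlapped. Among windows of 5 Mb ranked by SIT-only bases, the 2 that make up the first 10 Mb of chromosome 14 ranked 1 and 3. These 10 Mb held 249 SIT-only peaks of 384 (64.8%, against 42.3% of all SIT peaks). Genes with many of them were the predicted genes Gm3411, Gm10406 and Gm3558. Whether reads there were placed uniquely was not tested, and with that stretch left out, an alternative chosen after seeing the data, 58.0% of SIT peaks were overlapped.

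**Figure D4:**
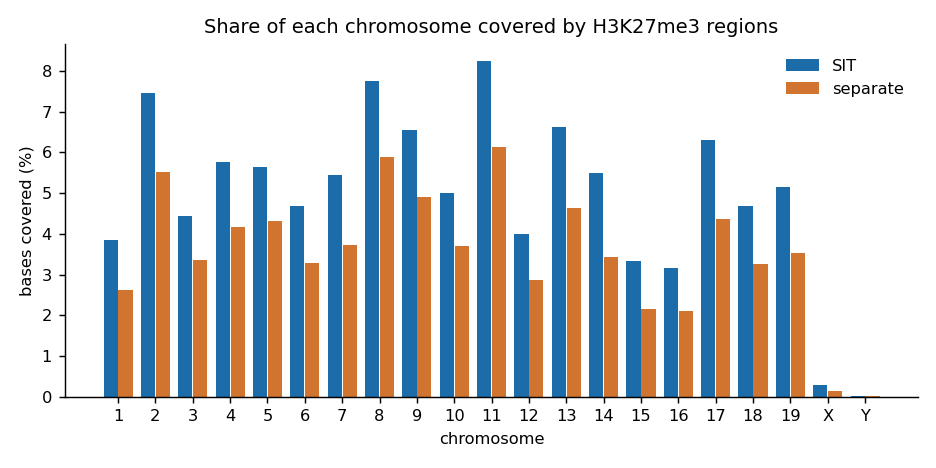
Share of each chromosome's bases covered by SIT peaks (blue) and by merged separate regions (orange), in percent. SIT lies above separate on every chromosome, and both are lowest on X and Y, at 0.297% and 0.135% for X.

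By the gene that the authors assigned to each peak, SIT listed 6472 genes and the separate isolation 5475. Both listed 5029, which is 77.7% of the SIT genes and 91.9% of the separate genes. SIT alone listed 1443 and separate alone 446, and of these 282 were in left alone, 119 in right alone and 45 in both. Of the SIT-alone genes, 75.4% had 1 peak, and 39 (2.70%, 1.98 to 3.67%) had a peak that overlapped a separate region assigned to another gene. Of the separate-alone genes, 133 (29.8%, 25.8 to 34.2%) had such a peak. Among protein-coding genes, 19.1% were assigned a peak in both, 5.5% in SIT alone and 1.66% in separate alone.

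Since 1 peak carries 1 gene, genes were also counted by whether the annotated start site lay inside a region. Of 21938 protein-coding genes, 2278 were marked in SIT (10.4%) and 1838 in the separate isolation (8.38%). Both isolations marked 1688 (7.69%), SIT alone 590 (2.69%), separate alone 150 (0.684%) and neither 19510 (88.9%). The left list marked 1766 (8.05%) and the right list 1094 (4.99%). A SIT-alone start site lay a median of 6060 bp from the nearest separate region, and 178 of 590 (30.2%) were within 1000 bp of one. For separate-alone start sites the median was 1631.5 bp, and 57 of 150 (30.6 to 46.0%) were within 1000 bp. Counts for each list below are read against the shares over all protein-coding genes. The lists were drawn up with earlier results of these data known, so their counts are descriptions. In what follows, in SIT alone, in separate alone and in neither refer to the start site, and many of these genes were assigned a peak in the other isolation as well.

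Hox and other homeobox genes were marked almost throughout, in both isolations. Of 39 Hox genes, which set position along the body axis, SIT marked 38 and the separate isolation 36, with 36 in left and 30 in right. The peaks over them were among the widest. Taken over genes, so that a peak counts once for each Hox gene it covers, the median width was 138368 bp in SIT and 103975 bp in the separate regions. Hoxd13 and Hoxa4 were in SIT alone, with start sites 146 and 88 bp from a separate region, and Hoxa13 was in neither. Of 101 other homeobox genes found, SIT marked 93 and separate 90. Tlx2, a factor of enteric neurons, was in SIT alone with its start site 24 bp from a separate region. Nkx6-3 was in SIT alone with a peak of 2359 bp, 2446 bp from a separate region. Neither isolation marked 7 of the homeobox genes.

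Forkhead genes, such as the endoderm factor Foxa2, were marked in 24 of 27 in SIT and 23 in separate, with Foxn1, a thymus factor, in SIT alone. SOX, T-box and GATA genes were marked in 26 and 25 of 38, with Sox10, a factor of oligodendrocytes and neural crest, in SIT alone and its start site 64 bp from a separate region. Neither isolation marked 12 of them. Basic helix-loop-helix lineage genes were marked in 23 and 22 of 44, with Hes1, a Notch target, in SIT alone at 1301 bp. Neither isolation marked 21 of them.

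Markers of cell types checked the labelled neurons. Of 26 excitatory neuron genes, 2 were marked in SIT and 2 in separate, at or under the share over all genes. Prox1, described above, was among them. Camk2a, Slc17a7, Grin1 and Rbfox3, which excitatory neurons use, were in neither. Of 25 interneuron genes, 20 were marked in SIT and 18 in separate. Gad2, the enzyme of GABA synthesis, had a SIT peak of 18671 bp, a left peak of 20281 bp and a right peak of 15139 bp over its start site. Sst, the peptide somatostatin, had 10592, 7403 and 5664 bp. Pvalb, the calcium-binding protein of basket cells, and Kit were in SIT alone, with start sites 168 and 309 bp from a separate region. Gad1 was in neither by start site, although 22.3% of its gene and flanks was covered in SIT and 5.01% in separate.

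Glial and vascular genes were marked at shares between these. SIT and separate each marked 3 of 17 astrocyte genes, Fgfr3, Gja1 and Gjb6. Of 16 oligodendrocyte genes, 6 were marked in SIT and 5 in separate, all of them genes of the lineage's specification or precursors such as Olig1, Olig2 and Pdgfra, with Sox10 the 1 in SIT alone. Mbp and Mog, genes of mature myelin, were in neither. Of 17 microglia genes, both isolations marked the same 4, Sall1, C1qc, Tmem119 and Cx3cr1. Of 22 endothelial and mural genes, SIT marked 10 and separate 8. Vwf, the von Willebrand factor of endothelium, and Pdgfrb, a receptor of pericytes, were in SIT alone, at 1112 and 5327 bp. How far nuclei of other cells entered either isolation was not tested.

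In the lists of signalling and transmitter genes the isolations differed by 3 genes or fewer. WNT ligands were marked in 13 of 19 in SIT and 11 in separate. Wnt2 was in SIT alone with a peak of 3654 bp whose start site lay 439259 bp from the nearest separate region. Wnt8a was in SIT alone at 890 bp. Genes of other transmitters and peptides were marked in 18 and 15 of 27, with Avp, the peptide vasopressin, Ddc, the decarboxylase of monoamine synthesis, and Slc18a2, the vesicular monoamine transporter, in SIT alone at 775, 910 and 62011 bp. BMP, GDF and antagonist genes were marked in 13 and 14 of 28. Bmp3 was in separate alone, through a right peak of 2873 bp, with its start site 522 bp from a SIT peak. FGF ligands were marked in 6 and 5 of 22, with Fgf23, a hormone of phosphate balance, in SIT alone at 7568 bp.

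**Figure D5:**
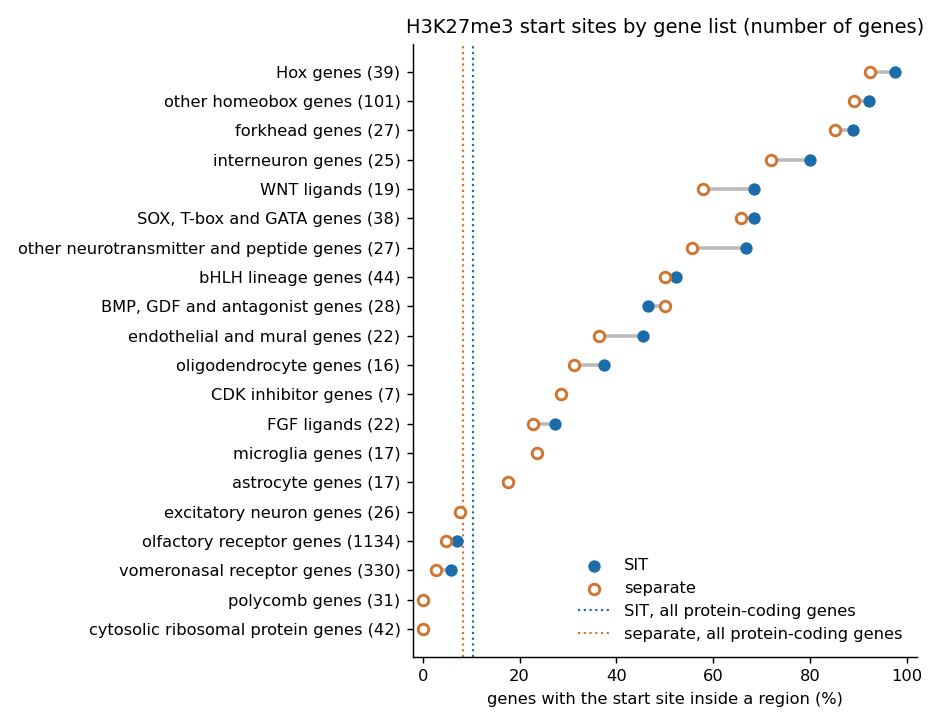
Share of the genes of 20 lists whose start site lay inside a SIT peak (filled blue) or a separate region (open orange), in percent, with the number of genes in brackets; dotted lines are the shares over all protein-coding genes, 10.4% in SIT and 8.38% in separate. SIT and separate lie side by side in each list, with SIT at or right of separate in all but BMP, GDF and antagonist genes; counted by assigned gene instead, separate exceeded SIT in several lists, such as Hox genes (18 against 4).

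By the gene assigned to each peak the lists gave other counts, and separate exceeded SIT in several. Hox genes were assigned a peak in 4 of 39 in SIT and 18 in separate. Each peak, however wide, carries 1 symbol. Other homeobox genes gave 95 in SIT and 97 in separate, SOX, T-box and GATA genes 24 and 27, interneuron genes 21 and 22, other transmitter and peptide genes 18 and 19, BMP, GDF and antagonist genes 16 and 18, and CDK inhibitor genes 4 and 6. SIT exceeded separate in bHLH genes (28 and 26), astrocyte genes (8 and 6), endothelial and mural genes (14 and 11), WNT ligands (15 and 14) and FGF ligands (13 and 12). Forkhead (24), excitatory neuron (5), oligodendrocyte (8) and microglia (6) genes had the same number in both. Pvalb, Kit, Vwf, Ddc, Wnt8a, Tlx2 and Nkx6-3, in SIT alone by start site, were assigned a peak in all 3 lists, as were Nkx2-4 and Bmp3. Slc18a2, Pdgfrb, Wnt2 and Myoc were assigned a peak in SIT and in neither separate list. Sox10 and Rtl1 were assigned a peak in the separate isolation and not in SIT.

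At the other end were genes that every cell uses and large receptor families. None of 42 ribosomal protein genes and none of 31 Polycomb genes was marked in either isolation. By assigned gene, SIT and separate listed 5 and 3 of the ribosomal and 5 and 5 of the Polycomb genes. Of 7 CDK inhibitor genes, Cdkn2a and Cdkn2b were marked in all 3 lists, with SIT and left peaks of 51933 and 52058 bp. Olfactory receptor genes were marked below the share over all genes, in 81 of 1134 in SIT (7.14%) and 54 in separate (4.76%). Both marked 42, SIT alone 39 and separate alone 12. The widest SIT peaks of the SIT-alone receptors lay over Olfr1410 (11402 bp), Olfr372, Olfr20, Olfr30 and Olfr517, and the widest separate regions of the separate-alone receptors over Olfr288 (5810 bp), Olfr370, Olfr322, Olfr1377 and Olfr155. By assigned gene, 179 olfactory receptor genes were listed in SIT and 120 in separate. Vomeronasal receptor genes were marked in 19 and 9 of 330, 7 in both, 12 in SIT alone and 2 in separate alone. Those named by width were Vmn1r85 (12283 bp), Vmn1r234, Vmn2r9, Vmn1r235 and Vmn1r51 for SIT, and Vmn1r55 and Vmn1r50 for separate. By assigned gene, 49 vomeronasal receptor genes were listed in SIT and 32 in separate. These receptors have close paralogs, and how reads were shared between copies was not tested.

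Of 11 genes that the study itself names for a histone mark, picked from these samples and so no independent evidence, start sites of 3 were marked in SIT and of 1 in separate. The 1 in both was Prox1. Myoc, which encodes the secreted protein myocilin, had a SIT peak of 3936 bp over its start site and no separate region within 8855 bp. Rtl1, an imprinted gene, had its start site inside a SIT peak of 21532 bp and 398 bp from a separate region. By assigned gene, Efnb2, an ephrin ligand, had 2 SIT peaks, at 304205 and 60847 bp from its start site. Epop, a Polycomb partner, had 1, at 933 bp, and none of these met a separate region. Col3a1, a collagen, had 2 SIT peaks, at −280481 and −273542 bp, of which 1 met the left peak. No list covered any base of Efnb2 or Col3a1 or of their 10 kb flanks.

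Lists of sedentary mice, from other animals, told which of these regions were found again. Overlapped SIT peaks met a peak of at least 1 of the 3 sedentary H3K27me3 lists in 90.6% (90.1 to 91.1%), SIT-only peaks in 44.9% (44.0 to 45.9%) and separate-only regions in 40.9% (38.9 to 42.9%). At 2 to 3 kb of width the shares were 78.2% (76.6 to 79.7%), 41.4% (40.0 to 42.9%) and 37.3% (34.9 to 39.8%). The sedentary right separate list alone held 38.8% of the SIT-only peaks, the sedentary left separate list 14.2% and the sedentary SIT list 8.88%. The sedentary SIT list had 10279 peaks and the merged sedentary separate lists 22182 regions, and no background share was computed. Of the 61 separate-only regions found in both hemispheres, 49 (80.3%, 68.7 to 88.4%) met a sedentary peak.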

How the data were processed

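The authors aligned CUT&RUN reads to mm10 with Bowtie2 2.4.1 after quality control with FastQC 0.11.9. They called peaks with SEACR in its stringent mode, with a cut-off that keeps a top fraction of peaks. How far that cut-off sets the length of each list was not tested. Peaks were annotated with ChIPseeker 1.8.6, with promoters as 3000 bp on either side of a start site, and biomaRt symbols. The deposited lists give position, width in bp, annotation, distance to the start site and symbol of each peak, with no counts or signal. How libraries were combined into a list is not given in the sources used here, and the lists carry no depth; the study's methods state a minimum number of reads per library, which does not give the depth of a list. Of the 12 lists, the 3 exercised and 3 sedentary H3K27me3 lists are reported, and the H4K8ac lists are not.

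Samples were grouped by mark, exercise, isolation and hemisphere, per the labels. Left and right peaks sharing at least 1 bp were merged, and a merged region took the annotation of its widest peak. An overlap was at least 1 bp. Start sites were taken from the GENCODE M21 annotation and bases from the genome of the same build. Of 21911 protein-coding start sites, with each gene symbol taken once, 14265 matched a RefSeq promoter by symbol within 1000 bp. For this reason CG dinucleotides by status were counted in the genome around the annotated start site. Overlaps were computed with pandas 2.3.3, scipy 1.17.1 and numpy 2.4.6 under Python 3.11.15, figures were drawn with matplotlib 3.10.9, and the interval code gave the same values as base-by-base counts in 20 of 20 simulated sets.

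Members and gene lists were chosen with earlier results of these data known. Named genes were the 5 widest peaks and the 5 genes with the most peaks of each class, every list member marked in 1 isolation alone (the 5 in the widest regions for each isolation where there were more), the Hox genes and genes the study names for histone marks. Other genes are examples chosen after their values were seen. Some members that this rule names are not reported here. The lists analysed here hold 1 pooled list per group, so no test between the isolations was made, and per-library files were not analysed here. Alternatives changed the separate list, list length, overlap, joining distance, chromosomes and the way genes were counted.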

Additional observations from a re-analysis of the deposited data

Results flagged for a closer look

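The exercised and sedentary mice differed in the direction of the comparison between isolations. In exercised mice SIT gave 1.36 times as many H3K27me3 regions as the separate isolation, and in sedentary mice 0.463 times as many, with 10279 SIT peaks against 22182 merged separate regions. For covered bases the ratios were 1.40 and 0.584. The promoter share of SIT minus that of separate was −1.36 percentage points in exercised mice and 6.09 points in sedentary mice, but in exercised mice it was 1.14 points with the SIT list cut to its widest peaks, as many as there were separate regions. In sedentary mice 97.5% of SIT peaks overlapped a separate region and 43.0% of separate regions overlapped a SIT peak. Each value comes from pooled lists with no replicates, so the difference between exercised and sedentary mice was not tested.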

How the results depend on the processing

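Of 76 alternative values over 9 results and 13 settings, 45 stayed near the reported value, 30 moved and 1 reversed. With left alone, 55.5% of SIT peaks and 88.4% of left peaks were overlapped. With right alone the ratios of number and bases were 2.60 and 3.29, the overlapped shares 26.1% and 96.7%, the Jaccard index 0.287, the promoter difference −5.83 points, and genes in SIT alone, separate alone and both 3130, 164 and 3342. With separate regions found in both hemispheres these were 3.86 and 2.23, 25.3% and 99.1%, −12.0 points, and 3383, 112 and 3089 genes. With the widest SIT peaks, as many as separate regions, the overlapped shares were 67.8% and 80.0%, genes in SIT alone 921 and in separate alone 766, and the promoter difference reversed to 1.14 points. Reciprocal overlap of 50% gave 37.4% and 50.9%. With the widest 50% of each list 88.7% of separate regions were overlapped, and with intervals within 1000 bp joined 86.9%. Genes in both were 3348 with the widest 50%, 3145 by start site over all annotated genes (the 1688 of the report are protein-coding genes) and 2512 with at least 2 peaks. Fewer peaks enter several of these settings by construction, and other causes were not tested.

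No paired analysis was possible because the lists carry no replicate columns, and leaving out each replicate in turn was not run for the same reason. The lists do not give their depth, so a region missing from a list was not called there, which does not show that the mark is absent.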
